A study of Mus musculus with 8 samples.

Results

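The genes described are 54 genes of DNA damage sensing and DNA repair, chosen by name and grouped by repair route. All 54 were on the array, as 71 of its 55681 mouse probes and 98 of its 59305 spots, and 21021 genes were measured in all. Thyroid RNA came from female Balb/c mice aged 8 weeks. The 4 exposed mice had received 99mTcO4- (pertechnetate, which thyrocytes take up through the iodide transporter) by intraperitoneal injection, giving the thyroid an absorbed dose of 30 Gy, and RNA was taken 24 hours later. The 4 control mice are described as untreated in the text of the study and as given saline in a legend. Each thyroid was hybridised to its own single-colour Agilent array, and the arrays are called controls 1 to 4 and S539, S588, S589 and S590.

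Cells meet different DNA lesions with different machineries. Direct reversal strips an alkyl group from a base without cutting DNA, base excision repair removes small damaged bases, and nucleotide excision repair cuts out bulky lesions. Mismatch repair corrects replication errors, translesion polymerases copy past lesions that are still present, and double-strand breaks are rejoined by end joining or copied from the sister chromatid by homologous recombination. The sensing kinases ATM and ATR start the response, and ATM marks breaks by phosphorylating the histone H2AX. The arrays measure mRNA and carry no information on that phosphorylation.

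Thyroglobulin, the defining product of thyrocytes, was present on every array (18.85 ± 0.10 in controls and 18.89 ± 0.15 in exposed thyroids, log2 signal, SD, n = 4), and each of the 10 thyrocyte markers exceeded background clearly on all 8 arrays. Of the 10 thyrocyte differences, exposed minus control, 2 were positive, with a median of −0.47 (log2) and 2 genes called lower, Slc5a5 (−3.53, limma adjusted p = 0.0137) and Dio1 (−2.46, adjusted p = 0.0153). The mean log2 signal of the 10 thyrocyte markers was 12.07 to 13.06 in controls and 11.62 to 11.77 in exposed thyroids. Their summed linear signal was 510000 to 640800 in controls and 477600 to 621800 in exposed thyroids.

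Markers of skeletal muscle (6 of 6) and parathyroid (3 of 3) and 2 of 3 C cell markers were also above background on every array. All 6 muscle differences were negative (median −1.12, none called), with a summed signal of 697000 to 1506000 in controls and 331900 to 1123000 in exposed thyroids. None of 5 fibroblast differences was positive (median −0.46, 2 with exposed arrays all below the controls), and 1 of 6 macrophage differences was (median −0.42, likewise 2). The summed signals were 143000 to 192400 and 109800 to 152700 for fibroblasts and 14660 to 18840 and 10490 to 14250 for macrophages, controls first. The part of any of these cell types in the member values was not tested. Controls 1 and 2 stood apart from the other 6 arrays. The mean of 12 genes of dividing cells was 8.98 and 8.87 in these controls, 6.58 and 6.84 in controls 3 and 4, and 6.08 to 6.74 in the exposed arrays (log2 signal), and the summed linear signal of the list ran from 2769 to 15720 in controls and from 1595 to 2592 in exposed thyroids. The mean of 9 genes of developing T cells was 11.46 and 10.44 in controls 1 and 2, 7.06 and 6.85 in controls 3 and 4, and 7.01 to 8.16 in the exposed arrays, with a summed signal of 6020 to 68760 and of 6202 to 10190. All arrays lay on 1 slide in 1 scan, with exposed samples in the first positions, so an effect of position and one of exposure cannot be told apart.

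Exposure was followed by higher mRNA of 2 repair genes, Mgmt and Polk, while no member was called lower. Of the 54 members, 2 (3.7%) were called higher at an adjusted p under 0.05 (limma, adjusted over all 55681 probes), and over all genes 190 of 21021 (0.904%) were called higher. None was called lower, against 62 (0.295%) over all genes. At an unadjusted p under 0.05, 7 members were higher and 10 lower (31.5% of 54), and 14.6% of all genes passed that limit. The 4 exposed arrays all lay above the 4 control arrays for 7 members (13% of 54, against 5.44% of all genes) and all below for 6 (11.1%, against 6.21%). The members were chosen with earlier results of these data known, so these shares are no test of an excess among repair genes. The median log2 difference, exposed minus control, was −0.04 for the members and −0.03 for all genes. It was positive for 21 members (38.9%) and for 46.4% of all genes. The shares over all genes also stand beside the counts by route below. For 41 members the 95% interval of the log2 difference lay within −1 to 1.

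**Figure D1:**
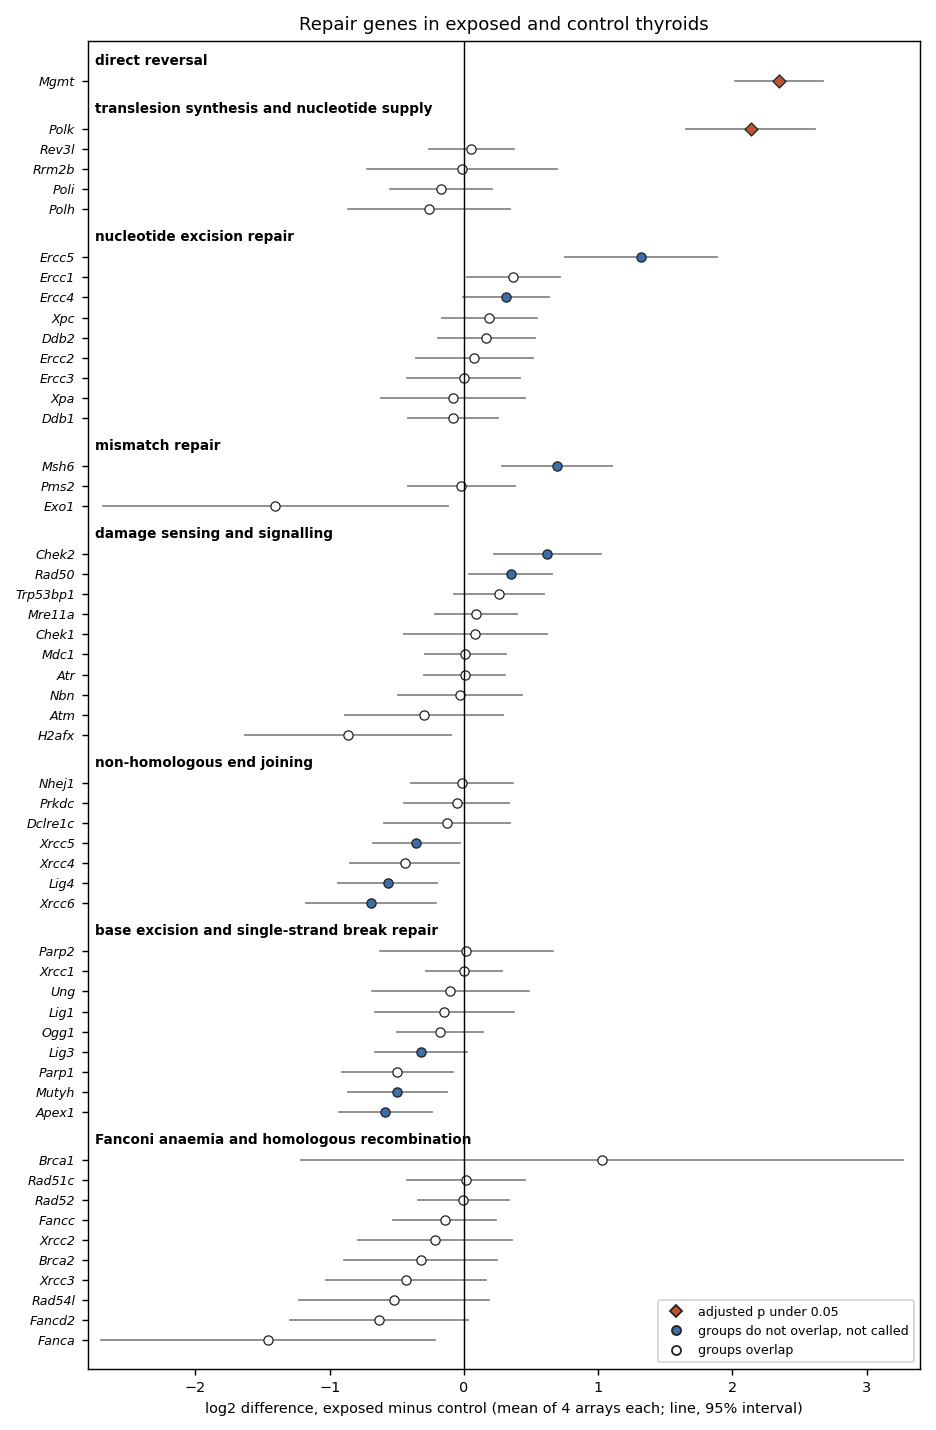
Log2 difference between exposed and control thyroids for the 54 members, grouped by repair route, with the 95% interval from limma (4 arrays per group). Mgmt (2.35) and Polk (2.14) are the members called at an adjusted p under 0.05, and most other intervals include 0 or lie close to it.

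Mgmt encodes the methyltransferase that removes alkyl groups from guanine in a single step and is used up by doing so, and it was the only member of the direct reversal route. Its log2 signal was 10.62, 10.52, 10.35 and 10.73 in controls 1 to 4 and 13.03, 12.78, 12.98 and 12.82 in S539, S588, S589 and S590. The groups were far apart, with a gap of 2.04 log2 units between the highest control and the lowest exposed array, and the arrays of each group lay close together. The mean rose from 10.56 ± 0.16 to 12.90 ± 0.12 (SD, n = 4), a log2 difference of 2.35 (SE 0.14, 95% interval 2.02 to 2.67, limma adjusted p = 0.0013), or 5.08-fold. In whole tissue, a change in the number of cells of a type and a change in RNA per cell cannot be told apart. Without controls 1 and 2 the difference was 2.36 (adjusted p = 0.0318). The single Mgmt probe lies at chr7:144319790-144319849 in mm9, and controls 1 and 2, in which dividing cell and T cell genes were highest, were in the middle of the control range.

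The 250 bases before the upstream Mgmt start in RefSeq are printed because Mgmt had the largest difference among the members. They lie at chr7:136894336-136894585 (GRCm38.p6, plus strand) and hold 67.2% G and C. They contain no match to the p53 decamer (the consensus of a single half-site of the p53 response element), nor do the following 50 bases.
Mgmt, upstream start: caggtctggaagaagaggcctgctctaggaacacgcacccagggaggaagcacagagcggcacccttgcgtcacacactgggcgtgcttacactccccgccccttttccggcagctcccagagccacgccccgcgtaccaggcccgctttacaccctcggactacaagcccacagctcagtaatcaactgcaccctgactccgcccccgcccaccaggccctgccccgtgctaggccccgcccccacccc

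Polk encodes DNA polymerase kappa, which copies past bulky adducts on guanine, and it is known as a p53 target in mice. The probe that stands for the gene (chr13:97251653-97251712 in mm9) gave 8.66, 8.996, 9.34 and 9.35 in the controls and 11.56, 11.09, 11.06 and 11.18 in the exposed arrays. Every exposed array exceeded every control array, with a gap of 1.71 log2 units. The mean rose from 9.09 ± 0.33 to 11.22 ± 0.23 (SD, n = 4), a log2 difference of 2.14 (SE 0.21, 95% interval 1.66 to 2.61, limma adjusted p = 0.00714), or 4.39-fold. Without controls 1 and 2, which had the lowest Polk signals, the difference was 1.87 and missed the threshold (adjusted p = 0.0525).

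A second Polk probe at chr13:97256835-97256894 gave 7.10, 7.07, 7.27 and 7.26 in the controls and 9.31, 10.01, 8.58 and 8.51 in the exposed arrays. Its groups did not overlap either, and its exposed arrays were more scattered, with S588 highest. The difference was 1.93 (SE 0.33, limma adjusted p = 0.0523), or 3.81-fold.

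RefSeq gives Polk an upstream start and an internal start, both on the minus strand, and both are shown because the p53 decamer, searched on both strands, was found before the internal start alone. The decamer, a single half-site, is in capitals and begins 231 bases before that start. It occurred in 2 of the 41 members with a promoter window, Polk and Fanca (4.88%), and in 9.55% of the 27025 genes with one. The windows run from 250 bases before to 50 after a start, and no binding was measured. The upstream sequence, at chr13:96542580-96542829 (GRCm38.p6), holds 68% G and C, and the internal one, at chr13:96519188-96519437, holds 46.8%.
Polk, upstream start: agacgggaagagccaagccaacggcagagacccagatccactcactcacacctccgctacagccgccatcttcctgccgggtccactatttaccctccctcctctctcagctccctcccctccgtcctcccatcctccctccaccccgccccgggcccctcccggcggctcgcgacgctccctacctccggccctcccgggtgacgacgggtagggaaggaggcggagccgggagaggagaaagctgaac
Polk, internal start: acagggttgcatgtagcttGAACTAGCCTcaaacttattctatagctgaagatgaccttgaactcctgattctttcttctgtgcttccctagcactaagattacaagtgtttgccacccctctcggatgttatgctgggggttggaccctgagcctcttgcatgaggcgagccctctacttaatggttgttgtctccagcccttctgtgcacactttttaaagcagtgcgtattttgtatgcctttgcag

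The other 4 members of the translesion and nucleotide supply group did not pass the test. Rev3l, the catalytic subunit of polymerase zeta, differed by 0.05 (95% interval −0.26 to 0.37, log2), and Poli, a close relative of polymerase eta, by −0.17 (−0.55 to 0.21). Polh, the polymerase that copies past ultraviolet photoproducts, differed by −0.26 (−0.86 to 0.34). Rrm2b, the p53-inducible subunit of ribonucleotide reductase that supplies nucleotides for repair, differed by −0.01 (−0.72 to 0.69) and had 1 other probe at 0.34, which was well above background on no control array. The intervals of these 4 members all ended below the lower bound for Polk.

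Of the 9 nucleotide excision repair members none was called, 2 had exposed arrays all above the controls, and 6 differences were positive (median 0.17, log2). The median was 0.09 without control 4 and 0.26 without control 3, and 5 to 8 differences were positive over the alternative fits. Ercc5, also called XPG, cuts the damaged strand on the 3′ side of the lesion and is listed as a p53 target. Its signals (chr1:44237384-44237443, mm9) were 9.25, 9.37, 9.63 and 10.14 in the controls and 11.34, 10.63, 10.87 and 10.83 in the exposed arrays. The lowest exposed array, S588, was 0.48 above control 4, the highest control. The means were 9.60 ± 0.40 and 10.92 ± 0.30 (SD, n = 4), a difference of 1.32 (SE 0.24, 95% interval 0.76 to 1.88), and the limma adjusted p of 0.0687 missed the threshold. A dimmer probe in the same gene differed by 0.97 (adjusted p = 0.352), and its groups overlapped at control 4 (6.86) and S588 (6.54). Ercc5 was past the threshold in 7 of 18 alternative fits, with an adjusted p between 0.0173 and 0.245. Without controls 1 and 2, its lowest arrays, the difference by the first probe was 1.03 (limma adjusted p = 0.245).

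Ercc4, or XPF, is part of the nuclease that cuts on the 5′ side. It gave 11.21, 11.10, 11.06 and 10.87 in the controls and 11.56, 11.28, 11.24 and 11.40 in the exposed arrays, and the groups were separated by a narrow gap of 0.03. The difference was 0.31 (SE 0.14, limma adjusted p = 0.424). Its partner Ercc1 differed by 0.37 (adjusted p = 0.383), with S588 (10.133) just under control 2 (10.135). The remaining members, from Ddb1 at −0.08 to Xpc at 0.19, differed little. Xpc and Ddb2, which recognise the lesion, gave intervals of −0.17 to 0.54 and −0.19 to 0.53.

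Members that are known p53 targets were 7, namely Polk, Ercc5, Xpc, Ddb2, Rrm2b, Fancc and Polh, from a list written from general knowledge, which holds Ddb2 although its induction by p53 is best known from human cells. Polk alone was called, and Ercc5 was the only other one whose groups did not overlap. The median difference of the 7 was 0.17, with 4 of them positive. That of the 47 members not listed as targets, among them Mgmt, was −0.08, with 17 positive. Absence from the list does not show that a member, Mgmt included, is independent of p53.

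**Figure D2:**
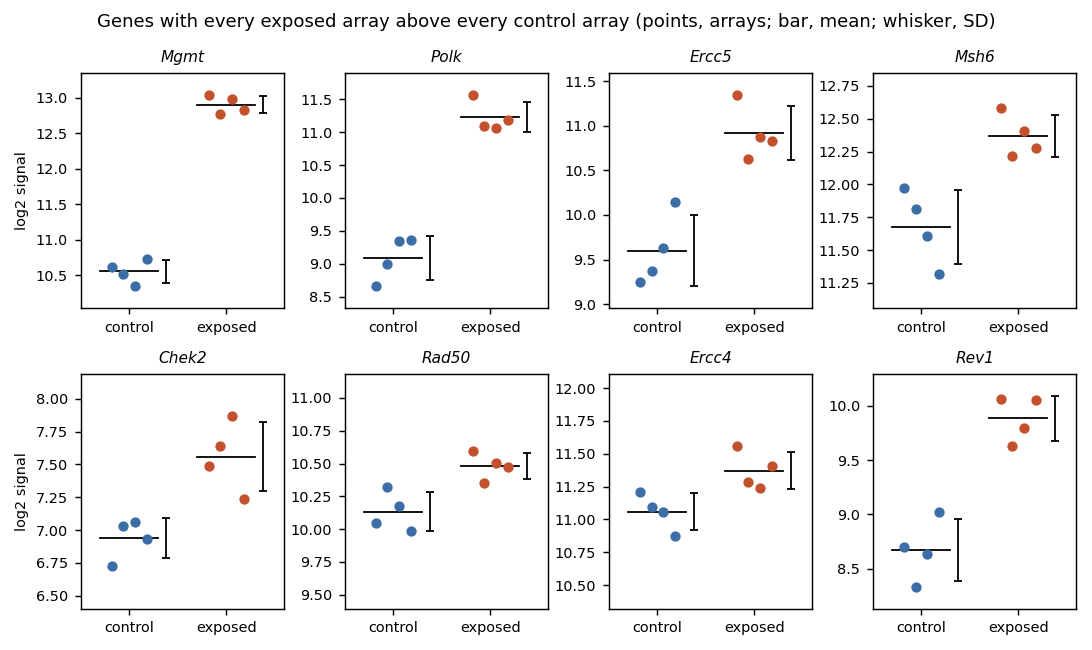
Log2 signal on each array for the 7 members whose exposed arrays all lay above the controls, and for Rev1 (axes differ between panels). Points are arrays, bars group means and whiskers SD (n = 4), and Mgmt and Polk have gaps of 2.04 and 1.71 log2 units between the groups while Ercc4 and Rad50 have gaps of 0.03.

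In mismatch repair, Msh6 encodes a subunit of the complex that recognises single mispaired bases. Its signals (chr17:88390143-88390202, mm9) were 11.97, 11.81, 11.61 and 11.32 in the controls and 12.58, 12.22, 12.41 and 12.28 in the exposed arrays. All exposed arrays were higher, by 0.25 at the narrowest. The difference was 0.69 (SE 0.18, 95% interval 0.28 to 1.11, limma adjusted p = 0.17), or 1.62-fold, and it was called under the normexp background correction alone (adjusted p = 0.0485). It was 0.91 without controls 1 and 2 (adjusted p = 0.18). Pms2, a subunit of the nicking complex, differed by −0.02. Exo1, the exonuclease that removes the mismatched strand and is made mostly in dividing cells, was highest in controls 1 and 2.

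Damage sensing and signalling held 10 members, none called, 7 with a positive difference and a median of 0.05 (log2), which ranged from −0.01 to 0.11 over the alternative fits. Chek2 encodes the kinase that passes the ATM signal to p53. It gave 6.73, 7.03, 7.06 and 6.93 in the controls and 7.49, 7.64, 7.87 and 7.24 in the exposed arrays. S590 was closest to the controls, 0.17 above the highest. The difference was 0.62 (SE 0.17, 95% interval 0.22 to 1.02, limma adjusted p = 0.203). It was 0.27 with no background correction, 0.28 with the deposited values and 0.35 with normexp, and 0.80 with 75th percentile scaling.

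Rad50 is the long coiled-coil subunit of the MRN complex, which binds broken ends. Its signals were 10.05, 10.32, 10.18 and 9.99 in the controls and 10.60, 10.35, 10.50 and 10.48 in the exposed arrays, so that S588 and control 2 nearly touched. The difference was 0.35 (SE 0.13, adjusted p = 0.36) by this probe and 0.06 by a dimmer one, and it was 0.22 to 0.23 for the first probe with no background correction, the deposited values or normexp. The other MRN subunits, Mre11a and Nbn, differed by 0.09 and −0.03.

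Atm gave 8.20, 8.87, 9.06 and 9.05 in the controls and 8.39, 8.06, 8.77 and 8.75 in the exposed arrays. The groups overlapped widely, with control 1 below 3 of the 4 exposed arrays. The difference was −0.30 (SE 0.25, 95% interval −0.89 to 0.29, limma adjusted p = 0.654), and a second probe gave −0.02. It was −0.50 without control 1 and −0.16 without S588. The groups also overlapped for Atr (0.01), Mdc1 (0.01), Chek1 (0.09) and Trp53bp1 (0.26, with a second probe at −0.25), as they did for Mre11a, Nbn and H2afx.

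H2afx, the gene of the histone H2AX, gave 11.84, 11.94, 10.92 and 10.75 in the controls and 10.86, 10.39, 10.72 and 10.03 in the exposed arrays. Controls 1 and 2 lay above all other arrays, and control 4 lay below S539. The mean was 11.36 ± 0.61 in controls and 10.50 ± 0.37 in exposed thyroids (SD, n = 4), a difference of −0.87 (SE 0.33, 95% interval −1.63 to −0.10) that did not pass the test (limma adjusted p = 0.359). Without controls 1 and 2 it was −0.34 (adjusted p = 0.611).

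Fanca and Rad54l, like H2afx and Exo1, were highest in controls 1 and 2, and Lig1, Apex1 and Xrcc6 also had controls 1 and 2 as their highest arrays, together 7 of 54 members (13%), against 5.68% of all genes and 10 of the 12 dividing cell genes. Exo1 gave 7.23 and 7.77 in controls 1 and 2, 5.67 and 5.61 in controls 3 and 4, and 4.42 to 5.73 in the exposed arrays. Its difference of −1.40 (SE 0.55, limma adjusted p = 0.372) became −0.47 without controls 1 and 2 (adjusted p = 0.617). Exo1 was well above background on 3 control arrays and 1 exposed array. The part of dividing cells or T cells in these genes was not tested.

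**Figure D3:**
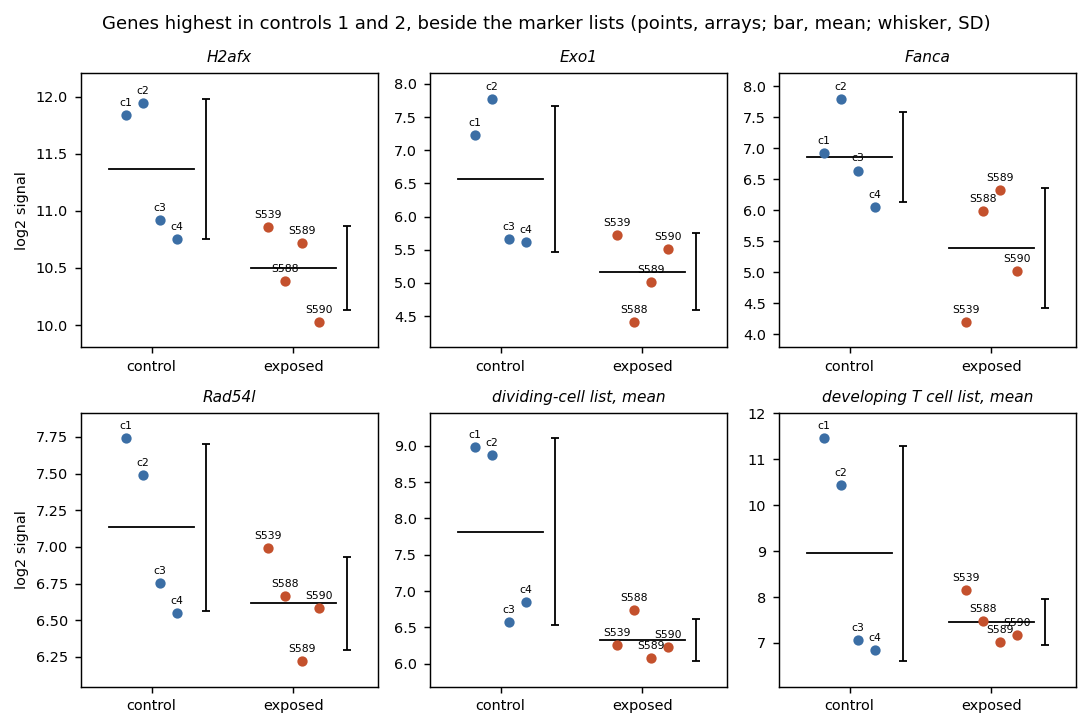
Log2 signal on each array for H2afx, Exo1, Fanca and Rad54l and the mean log2 signal of the dividing cell and developing T cell lists (c1 to c4 are controls 1 to 4, axes differ between panels). Points are arrays, bars group means and whiskers SD (n = 4), and controls 1 and 2 are the highest arrays in every panel.

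Several of these genes are known to be transcribed with S phase, so the promoter windows were searched for the E2F-type sequence, as TTTCCCGC, TTTCGCGC, TTTGCCGC and TTTGGCGC on both strands (no overlap with the p53 decamer was found in any member). It occurred in 7 of 41 members with a window (17.1%), namely Brca2, Chek2, Lig1, Mdc1, Msh6, Rad51c and Xrcc6, and in 2.6% of the 27025 genes. The differences of these 7, none of them called, ran from −0.69 (Xrcc6) to 0.69 (Msh6). Of the members highest in controls 1 and 2, only Lig1 and Xrcc6 held the sequence, and the windows of Fanca, Rad54l and Apex1 did not. Exo1 and H2afx are among the 13 members without a window. The member windows were richer in G and C (median 60%, against 52.7% for all windows), as are the searched sequences, and the part of base composition was not tested. Stretches of 60 bases are printed for 4 members described here, to show where the match lies, with the match in capitals. They lie at chr17:87975015-87975074 (Msh6, from 15 bases after the start), chr5:110839805-110839864 (Chek2, 152 before), chr5:150522427-150522486 (Brca2, 168 before) and chr15:82016297-82016356 (Xrcc6, 46 before), all in GRCm38.p6 on the plus strand.
Msh6: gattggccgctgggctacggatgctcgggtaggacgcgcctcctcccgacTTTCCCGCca
Chek2: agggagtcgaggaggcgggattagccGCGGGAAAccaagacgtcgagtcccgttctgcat
Brca2: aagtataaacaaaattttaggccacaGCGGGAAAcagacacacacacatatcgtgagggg
Xrcc6: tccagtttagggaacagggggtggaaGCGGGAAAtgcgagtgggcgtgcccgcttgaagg

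All 7 end joining members had a negative difference (median −0.36, log2), none was called, and 3 had exposed arrays all below the controls. Without controls 1 and 2, 2 of the 7, Nhej1 and Dclre1c, were positive, and 2 were positive without control 1. Array weights gave 1 positive difference, as did leaving out control 3, control 4, S539 or S588. With scaling to the 75th percentile all 7 were negative (median −0.37). The median lay between −0.40 and −0.29 in all alternative fits. Xrcc6 and Xrcc5 encode Ku70 and Ku80, the ring that threads onto broken ends. Xrcc6 gave 13.40, 13.39, 12.84 and 12.85 in the controls and 12.09, 12.66, 12.60 and 12.36 in the exposed arrays. Controls 1 and 2 were again highest, and controls 3 and 4 were still above every exposed array. The difference was −0.69 (SE 0.21, 95% interval −1.18 to −0.21, limma adjusted p = 0.241), and −0.42 without controls 1 and 2.

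Xrcc5 gave 10.51, 10.54, 10.36 and 10.73 in the controls and 10.12, 10.27, 10.03 and 10.30 in the exposed arrays, with control 3 just above S590. The difference was −0.36 (SE 0.14, limma adjusted p = 0.37). For Lig4, the ligase that seals the joined ends, the controls gave 10.45, 9.98, 10.02 and 9.95 and the exposed arrays 9.53, 9.36, 9.63 and 9.60. Control 1 was high, but the other controls also exceeded all exposed arrays by 0.32 or more.

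The Lig4 difference was −0.57 (SE 0.16, 95% interval −0.94 to −0.20, limma adjusted p = 0.205), or 1.48-fold lower. Its scaffold partner Xrcc4 differed by −0.44 (adjusted p = 0.376), with control 1 (9.36) below S590 (9.50). Prkdc, the catalytic subunit of the DNA-dependent kinase, differed by −0.05 (95% interval −0.44 to 0.34). Dclre1c, the Artemis nuclease, had 4 probes with differences from −0.55 to 0.32.

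Base excision and single-strand break repair had 9 members, of which 7 differences were negative (median −0.18, log2), none was called and 3 had exposed arrays all below the controls. The median was −0.43 without controls 1 and 2 and −0.12 without S588. Apex1, the endonuclease that cuts at sites that have lost a base, gave 11.57, 11.78, 11.39 and 11.32 in the controls and 10.79, 10.94, 11.07 and 10.92 in the exposed arrays. The gap between control 4 and S589 was 0.25. The difference was −0.58 (SE 0.15, 95% interval −0.93 to −0.24, limma adjusted p = 0.167), and −0.43 without controls 1 and 2, its highest arrays.

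Mutyh removes adenine paired with oxidised guanine. It gave 10.04, 10.40, 9.93 and 10.28 in the controls and 9.62, 9.73, 9.49 and 9.84 in the exposed arrays. Control 3 and S590 were the closest arrays of the groups, 0.10 apart. The difference was −0.50 (SE 0.16, limma adjusted p = 0.271), and a second probe, whose groups did not overlap either, gave −0.63 (adjusted p = 0.225).

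Lig3, the ligase that works with XRCC1, gave 9.39, 9.42, 9.62 and 9.87 in the controls and 9.28, 9.21, 9.19 and 9.34 in the exposed arrays. The groups were separated by 0.05. The difference was −0.32 (SE 0.15, limma adjusted p = 0.441), and −0.49 without controls 1 and 2, and a dimmer probe gave −0.06.

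Parp1, which senses strand breaks and builds poly(ADP-ribose) on them, gave 9.88, 10.28, 10.33 and 10.49 in the controls and 9.53, 9.63, 9.91 and 9.92 in the exposed arrays. Control 1 fell below S589 and S590, so the groups overlapped. The difference was −0.50 (SE 0.18, 95% interval −0.91 to −0.08, limma adjusted p = 0.331), and −0.66 without controls 1 and 2 (adjusted p = 0.266). The scaffold gene Xrcc1 had the narrowest interval of all members, −0.28 to 0.28 around a difference of 0.00. The remaining values were 0.02 for Parp2, −0.10 for the uracil glycosylase Ung, −0.15 for the replicative ligase Lig1 and −0.18 for the oxoguanine glycosylase Ogg1.

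**Figure D4:**
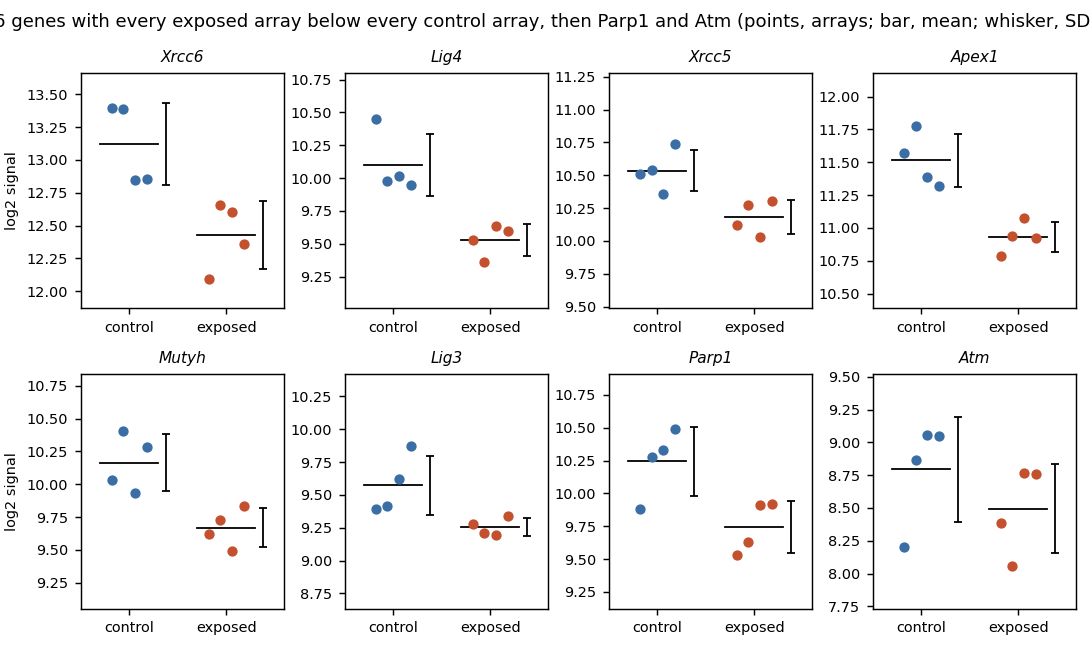
Log2 signal on each array for the 6 members whose exposed arrays all lay below the controls, and for Parp1 and Atm, whose groups overlap (axes differ between panels). Points are arrays, bars group means and whiskers SD (n = 4), and the differences of the 6 members lie between −0.69 (Xrcc6) and −0.32 (Lig3), none with an adjusted p under 0.05.

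The 10 members of the Fanconi anaemia and homologous recombination group had overlapping groups throughout, with 8 negative differences and a median of −0.27 (log2). The median was −0.10 with scaling to the 75th percentile, −0.15 without control 2 and −0.14 without S588. With the filter on dim probes, which kept 7 of these members, it was −0.22, with 1 positive difference. This group also held most of the members near background, since 7 of its 10 probes passed the background limit on every array, compared with 49 of 54 over the members. Fanca, a subunit of the Fanconi ligase complex, gave 6.92, 7.79, 6.64 and 6.05 in the controls and 4.21, 6.00, 6.33 and 5.03 in the exposed arrays. The difference of −1.46 (SE 0.54, limma adjusted p = 0.34) rested on a probe that was well above background on 3 control and 2 exposed arrays. Control 4 lay below S589, and the value without controls 1 and 2 was −0.96 (adjusted p = 0.545).

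Rad54l, a motor protein of strand exchange, differed by −0.52 (adjusted p = 0.527), and by −0.04 without controls 1 and 2. Fancd2, which the ligase complex marks with ubiquitin at crosslinks, was well above background on no control array and on 2 exposed arrays. Its mean signal was nonetheless lower in exposed thyroids (3.90 to 5.15, against 5.01 to 5.54 in controls, difference −0.63, limma adjusted p = 0.428). The lowest signal of any probe well above background was 4.44 to 5.92 on control arrays and 4.41 to 4.88 on exposed arrays. The counts of arrays above background therefore do not compare the groups. The Brca1 probe was well above background on S588 alone, at 7.42, with 2.95 to 3.34 on the other arrays. That Brca1 spot carried the scanner software's outlier mark, so no fold is given. Brca2, a mediator of strand exchange, differed by −0.32 (95% interval −0.90 to 0.25). Rad51c differed by 0.02, and Rad52, a strand annealing protein, by 0.00.

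For the 15 members with more than 1 probe, all probes had the same sign in 11 and both signs occurred in 4 (Trp53bp1, Rrm2b, Dclre1c and Fanca). The differences between exposed and control arrays were of similar size for Polk (2.14 and 1.93) and Mutyh (−0.50 and −0.63), and those for Rad50, Lig3 and Atm were smaller by the second probe. A second Fancc probe, for another transcript, gave −0.80 where the first gave −0.14.

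**Figure D5:**
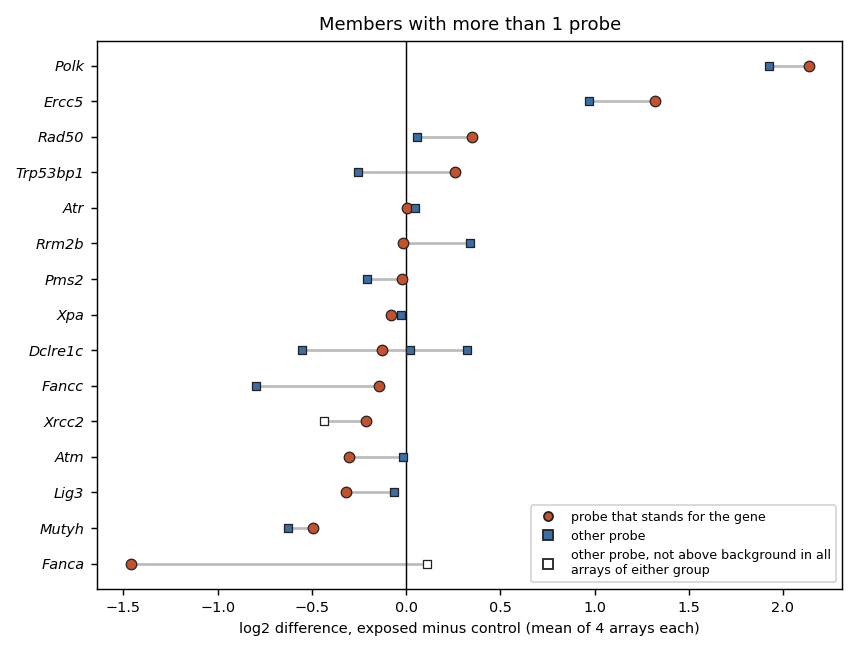
Log2 difference between exposed and control thyroids for each probe of the 15 members with more than 1 probe (means of 4 arrays per group). Circles are the probes that stand for the gene, squares the others, and Polk and Ercc5 are positive and Mutyh negative by every probe.

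Repair genes outside the members were read from a list of 91, of which 89 had a probe. Rev1 was called higher (1 of 89) and none was called lower, against 0.904% and 0.295% of all genes. At an unadjusted p under 0.05, 3 were higher and 8 lower (12.4% together), against 14.6% of all genes. The median difference was −0.04 (log2), against −0.03 for all genes. Rev1 is the deoxycytidyl transferase that binds other translesion polymerases, polymerase kappa among them. Its signals were 8.70, 8.34, 8.64 and 9.03 in the controls and 10.06, 9.63, 9.80 and 10.05 in the exposed arrays. No exposed array reached down to the controls, and the nearest were S588 and control 4. The difference was 1.21 (SE 0.19, 95% interval 0.77 to 1.65, limma adjusted p = 0.0364), or 2.31-fold, and the call was lost in 7 of the 8 fits that left out an array and in the fit without controls 1 and 2.

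In this list the exposed arrays were all above the controls for 5 genes (5.62%) and all below for 6 (6.74%), close to the 5.44% and 6.21% of all genes. The 5 were Rev1, Rrm1, Mpg, Rnf168 and Rad1. The 6 were Fanci, Blm, Rfc1, Tipin, Rpa3 and Msh3.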

How the data were processed

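The deposited files are, first, 1 scanner table for every one of the 8 Agilent 8x60K mouse arrays, made by the authors with Feature Extraction 10.7.3.1 per the file headers, in which spot intensity is given before and after background subtraction and detrending. A joint table of log2 values was deposited too, which per the methods had been quantile-normalized between slides with limma. These log2 values differed from quantile-normalized log2 median spot intensity by at most 0.0378. The flags for well above background, saturation and outlier pixels come from the same deposited output. No spot was saturated, and 60.5% to 77.3% of spots were well above background. Precision is limited by having 4 arrays in each group.

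The log2 of the background-subtracted intensity was quantile-normalized and spots of a probe were averaged. Groups, taken from the labels, were compared with lmFit and eBayes of limma 3.58.1 (R 4.3.3) with Benjamini-Hochberg adjustment over 55681 probes and a threshold of 0.05. A gene was read by its RefSeq probe of highest mean signal (Rad51c has no RefSeq probe). Probe positions are in mm9, and promoter sequences are from RefSeq (GRCm38.p6), for 41 of 54 members. No exact permutation of 4 and 4 arrays can give a two-sided p under 0.0286. Where no array of a group passed the background limit, its level there is a bound.

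The members and gene lists were chosen with earlier results of these data known. Members given in full were those called, those whose groups did not overlap (at most 16 in all), and H2afx, Atm and Parp1. Alternatives were 75th percentile scaling, normexp (offset 50), the deposited values, no background correction, no marked spots, a filter on dim probes, a variance trend, array weights, fold and signal limits, the mean of RefSeq probes, and leaving out each array. Leaving out controls 1 and 2 was added after seeing the data. The fit was tested on simulated data with independent noise for each probe and array. Such data lack the joint departure of controls 1 and 2, so the test does not cover it.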

Additional observations from a re-analysis of the deposited data

Results flagged for a closer look

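In 108 groups of 4 arrays, 4 had an extreme value far from the other 3, and chance gives about 1 in 20 (5.4). Brca1 on S588 was at 7.42 (log2 signal), with 3.07 the next highest exposed array, and the spot was marked as an outlier by the scanner software. Control 1 was high for Lig4, at 10.45, with 10.02 the next control. It was also high for Poli, at 10.68, with 10.28 the next. Control 3 was high for Rev3l, at 12.49, with 12.17 the next. The cause was not tested for any of these values.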

How the results depend on the processing

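Mgmt was called higher in all 18 alternative fits run for it (log2 difference 2.26 to 2.40, limma adjusted p 7.51e-05 to 0.0318), and Polk in 17 of 18 (1.87 to 2.22, adjusted p 0.00142 to 0.0525), the exception being the fit without controls 1 and 2. The count of members called higher, 2, became 4 with normexp (Ercc5 and Msh6 added), 3 with no background correction, the deposited values, the filter on dim probes, the variance trend, array weights or the mean of RefSeq probes (Ercc5 added), and 1 without controls 1 and 2. Leaving out each array in turn gave 2 in every fit. The count of other repair genes called higher, 1 (Rev1), ranged from 0 to 1 when an array was left out and was 0 without controls 1 and 2. No member and no other repair gene was called lower in any fit, and none of the 16 members given in full changed sign. With 75th percentile scaling the median of all genes moved from −0.03 to 0.06 and that of the members from −0.04 to −0.01. The median of the translesion and nucleotide supply group (−0.01) ranged from −0.11 to 0.09 over the alternative fits and that of mismatch repair (−0.02) from −0.13 to 0.34, so neither has a settled sign. The 0.34 came from the filter on dim probes, which left out Exo1 and kept 2 mismatch repair genes. In the fits with all 3 of these genes the highest median was 0.07. The cause of the other changes was not tested. No paired analysis was run because the control and exposed thyroids came from different mice. Probes near background (Brca1, Fancd2, Exo1 and Fanca) limit what can be read of those genes.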
